A study of Rattus norvegicus with 6 samples.

Results

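The genes described are those of the unfolded protein response and of amino acid shortage, measured in rat lung after inhalation of C60 fullerene or nickel oxide particles. The group is a list of gene names with no measured value in its rule, drawn up with earlier results of these data known, and it has 10 members: Asns, Atf4, Ddit3, Trib3, Hspa5, Herpud1, Xbp1, Dnajb9, Pdia4 and Hsp90b1. Probes were matched to them by the accession given in the array files. Of the 10 members, 9 had a probe (12 probes in all), and these 9 are among 24975 genes tested, of which 13546 had a gene symbol. No probe was matched to Xbp1, and its transcript was not analysed here.

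Male Wistar rats aged 9 weeks breathed clean air, a C60 fullerene aerosol or an aerosol of ultrafine nickel oxide (NiO) in a whole-body chamber for 6 hours a day on 5 days a week over 4 weeks. C60 is a cage of carbon atoms, and NiO was included as a particle known to act on the lung (positive control). Perfused right lungs were taken 3 days or 1 month (33 days) after the last exposure, and total RNA was hybridised to Agilent 1-colour whole-genome oligonucleotide arrays. The 6 groups had 3 arrays (air), 2 (C60) and 4 (NiO) at 3 days, and 4 arrays each at 1 month. The rats carried no transgene or other genetic change that the labels name, and nothing in the labels ties an array to a named animal, so the p-values measure the spread between arrays. The unit throughout is log2 of an array's processed signal over that array's 75th percentile, called the level. Levels of different probes are not comparable with each other, and only differences between groups are read.

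The endoplasmic reticulum (ER) folds secreted and membrane proteins with the help of chaperones. When unfolded protein builds up there, the sensors ATF6 and IRE1 raise chaperone genes, and the kinase PERK phosphorylates eIF2alpha, which slows translation in general while raising that of the transcription factor ATF4. The kinase GCN2 reaches the same factor when amino acids run short, and ATF4 then turns on genes of amino acid supply such as Asns and, with prolonged stress, Ddit3 (CHOP) and Trib3. In the lung, alveolar type II cells and plasma cells carry a heavy secretory load and hold much ER.

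The ER branch and the ATF4 branch are known to act through different promoter motifs, and the stretches of the members' promoters that carry them are shown for that reason. They come from RefSeq on the GRCr8 assembly, over the 250 bases before each annotated start, and all 10 members were matched. The capitals mark the motif and the lower-case letters its neighbours, each read on the gene's own strand. The ER stress response element was searched as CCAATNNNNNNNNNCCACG on both strands, and it was found in 22 of 33469 promoters of that length (0.0657%). It occurred in the windows of Hspa5, Xbp1 and Hsp90b1, and Hsp90b1 was the only promoter of the 33469 with more than 1 match, the second lying on the opposite strand:
Hspa5 (chr3:38452963-38453001, plus strand): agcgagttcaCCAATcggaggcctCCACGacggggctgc
Xbp1 (chr14:84604548-84604586, plus strand): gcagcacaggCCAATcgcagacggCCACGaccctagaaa
Hsp90b1 (chr7:23012337-23012479, minus strand): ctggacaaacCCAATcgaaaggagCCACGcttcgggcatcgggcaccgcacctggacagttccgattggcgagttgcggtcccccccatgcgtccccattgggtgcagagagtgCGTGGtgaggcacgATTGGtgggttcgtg

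The C/EBP-ATF composite element, the type of site that ATF4 is known to bind, was searched as TGATGNAA on both strands and was found in 1139 of the 33469 promoters (3.4%). Trib3 and Herpud1 each had 1 match, in both cases on the strand opposite to the gene, so that the capitals show its complement. The match began 21 bases before the start in Trib3 and 184 bases before it in Herpud1:
Trib3 (chr3:161275537-161275564, minus strand): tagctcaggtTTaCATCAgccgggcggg
Herpud1 (chr19:10614874-10614901, minus strand): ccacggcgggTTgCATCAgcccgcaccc
Neither motif was in the windows of Asns, Atf4, Ddit3, Dnajb9 and Pdia4. The shorter CCACG, which is also contained in every ER stress response element, was in the windows of 8 of the 10 members, all but Trib3 and Pdia4, against 27.2% of all promoters. A match describes these letters and is no evidence of binding. Other forms of ER stress element were not searched, so the lack of a match does not show that a window holds none.

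All 12 probes were well above background on all 21 arrays used, and none was held back by the filter. The scanner files of C60 at 3 days number 4 where the label gives 2 samples, and arrays 1 and 2 are the pair that rebuilds the authors' ratio for that group (median absolute log2 difference 0.00082 over 20357 probes, against 0.109 for all 4). Those 2 were used, and values for arrays 3 and 4 are given where they matter. Each of the 6 slides held 1 group and the scan days followed the time points, so the slide cannot be told apart from the group, nor the scan day from the time. NiO arrays 2 and 3 at 3 days stood apart, with a 75th percentile of 8.54 and 8.39 on the log2 scale against 9.21 and 9.08 for arrays 1 and 4. C60 arrays 1 and 2 at 3 days stood apart too: their negative control spots had a mean signal of 9.05 and 9.62 against 2.49 to 6.42 on the other arrays used, and their shares of spots well above background, 57.4% and 60.7%, were the lowest of those arrays. All C60 calls at 3 days, the fall of Ddit3 among them, rest on this pair. The lung markers Sftpa1, Sftpb, Sftpc, Sftpd, Ager, Scgb1a1 and Pecam1 were well above background on all 21 arrays. In whole lung, a change in the number of cells of a type and a change in RNA per cell cannot be told apart.

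At 3 days after NiO, Trib3, Hspa5 and Asns rose against clean air, by 2.30-fold, 1.48-fold and 1.23-fold. How many of all genes had no overlap between groups of this size was not counted. Separation of arrays is therefore given below as description only. At 1 month after NiO, Asns alone among the 9 had risen (1.75-fold), whereas with each array scaled to its median 5 of 9 had, Hspa5, Dnajb9, Ddit3 and Atf4 besides Asns. After C60, Ddit3 fell at 3 days (1.56-fold lower) and Asns rose at 1 month (1.24-fold), where median scaling gave 6 of 9. Median scaling shifted all genes upward at 1 month, not only the members. The median log2 fold of all genes went from -0.12 to 0.21 for NiO and from -0.09 to 0.22 for C60. The share of all genes called with median scaling is not given here, so the counts of 5 and 6 are no result about the members. With the 75th percentile as the scale, Atf4, Herpud1, Dnajb9, Pdia4 and Hsp90b1 passed the test in none of these 4 comparisons. The test was limma over all genes with Benjamini-Hochberg adjustment, called at an adjusted p under 0.05.

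**Figure D1:**
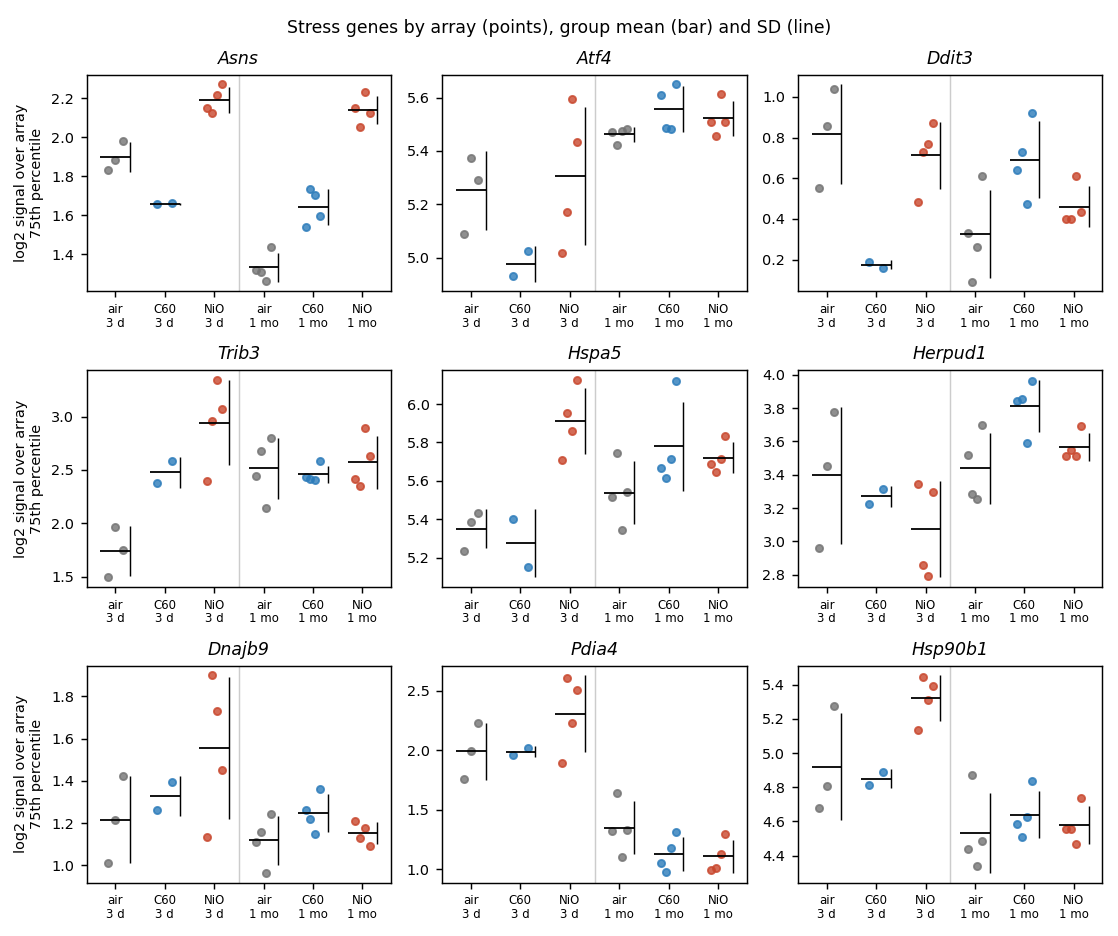
Level of each of the 9 measured genes on each array (points; y axis, log2 signal over the array's 75th percentile), with the group mean (bar) and SD (line) for clean air, C60 and NiO at 3 days and 1 month. Asns separates NiO from air at both times, and the 3 air arrays at 3 days hold the lowest Trib3 levels of the arrays used.

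The share of the members called has to be read against all genes. At 3 days after NiO, 3 of 9 members were called, all higher, beside 19% of all genes (11.1% higher and 7.86% lower). At 1 month after NiO, 1 of 9 was called, higher, beside 30.8% of all genes (11.9% higher and 18.9% lower). After C60 at 3 days, 1 of 9 was called, lower, beside 4.93% of all genes (2.94% higher and 1.99% lower), and at 1 month 1 of 9 was called, higher, beside 19.7% (7.29% higher and 12.4% lower). The members' share was thus near or under that of all genes for both particles at 1 month. The direction of that background turned with the scaling: of all calls at 1 month, 38.7% were higher for NiO and 36.9% for C60, against 55.4% and 55.3% with quantile normalization and 77.4% and 78.6% with median scaling. The median log2 fold over the 9 members was 0.32 for NiO at 3 days beside 0.04 over all genes, 0.06 beside -0.12 for NiO at 1 month, -0.07 beside -0.03 for C60 at 3 days and 0.13 beside -0.09 for C60 at 1 month. The comparisons at 1 time share their control arrays.

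**Figure D2:**
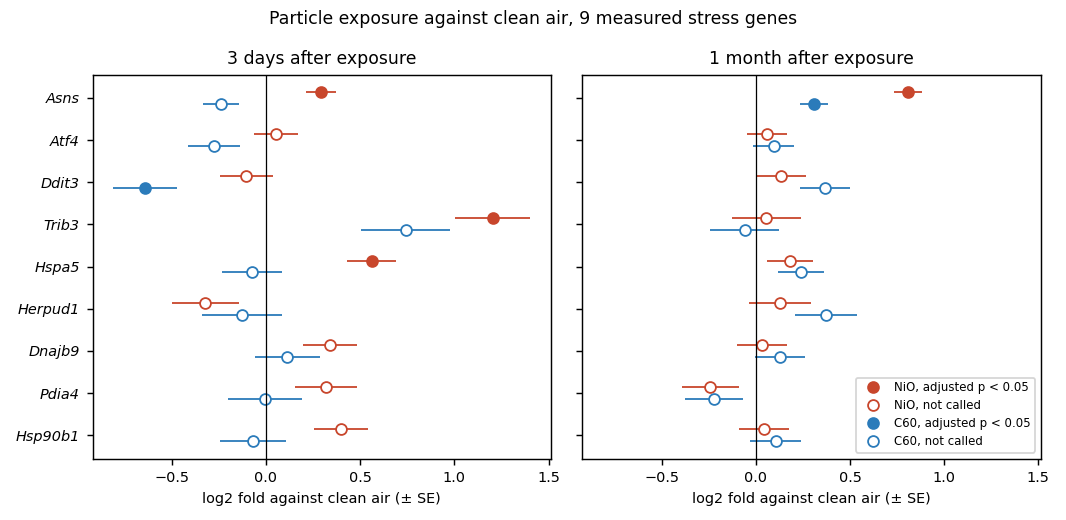
Log2 fold against clean air with its SE (x axis) for the 9 measured genes (y axis) at 3 days (left) and 1 month (right), NiO in red and C60 in blue. Filled points passed at adjusted p under 0.05: Trib3, Hspa5 and Asns for NiO at 3 days, Ddit3 for C60 at 3 days, and Asns for both particles at 1 month.

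Asns makes asparagine from aspartate and glutamine, and its transcript is a standard readout of amino acid shortage. Its probe lies at chr4:32759136-32759195 (rn4). At 3 days its levels were 1.83, 1.88 and 1.98 in clean air, 1.66 and 1.66 after C60, and 2.15, 2.13, 2.22 and 2.27 after NiO. At 1 month they were 1.32, 1.31, 1.26 and 1.44 in clean air, 1.54, 1.74, 1.70 and 1.59 after C60, and 2.15, 2.05, 2.23 and 2.13 after NiO. At both times every NiO array lay above every air and C60 array, and at 1 month the 3 groups were fully separated, with C60 in the middle.

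Against clean air, Asns was higher by 0.29 log2 after NiO at 3 days (SE 0.08, adjusted p = 0.0194) and by 0.81 at 1 month (SE 0.07, adjusted p = 8.21e-06). The NiO effect was larger at 1 month by 0.52 (SE 0.11, adjusted p = 0.00375). The means after NiO were nearly level at the 2 times, 2.19 ± 0.07 and 2.14 ± 0.07 (SD, n = 4 each), while that of clean air was 1.90 ± 0.08 (n = 3) at 3 days and 1.33 ± 0.07 (n = 4) at 1 month. The control was lower at 1 month by -0.57 log2 (SE 0.08, adjusted p = 3.84e-05), a contrast in which time, slide and scan day cannot be told apart.

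The Asns call at 3 days after NiO was lost with only the compared groups in the fit (adjusted p = 0.198), with median scaling (0.545), with normexp background correction (0.0517), without NiO arrays 2 and 3 together (0.0651), and without control array 1 (0.0882) or control array 2 (0.0593). The call at 1 month after NiO was kept in all 17 alternatives.

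After C60, Asns was higher by 0.31 log2 at 1 month (SE 0.07, adjusted p = 0.0103), a call lost with only the compared groups in the fit (0.0591). At 3 days it was lower by 0.24 without passing (log2 fold -0.24, SE 0.10, adjusted p = 0.185), although both C60 arrays lay below all 3 air arrays. C60 arrays 3 and 4, left out of the fit, had levels of 1.37 and 1.30, and with all 4 C60 arrays the log2 fold was -0.40 and passed (adjusted p = 0.0104). The C60 effect was higher at 1 month than at 3 days by 0.55 (SE 0.12, adjusted p = 0.00894).

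Atf4 encodes the transcription factor itself, which is regulated mainly at translation, so that its transcript need not follow its activity. Its levels at 3 days were 5.09, 5.37 and 5.29 in clean air, 4.93 and 5.02 after C60, and 5.02, 5.17, 5.60 and 5.43 after NiO. At 1 month they ran from 5.42 to 5.48 in air, from 5.48 to 5.65 after C60 and from 5.46 to 5.61 after NiO. C60 arrays 1 and 2 at 3 days lay below air, and the log2 fold of -0.27 (SE 0.14) did not pass (adjusted p = 0.322). C60 arrays 3 and 4, at 5.14 and 5.29, lay within the air range. The other Atf4 folds against air were 0.05 and 0.06 for NiO at 3 days and 1 month, and 0.09 for C60 at 1 month.

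Ddit3 encodes CHOP, a factor that promotes cell death in prolonged stress. Its levels at 3 days were 0.55, 0.86 and 1.04 in clean air, 0.19 and 0.16 after C60, and 0.48, 0.73, 0.77 and 0.87 after NiO. At 1 month they were 0.33, 0.09, 0.26 and 0.61 in air, 0.64, 0.73, 0.47 and 0.92 after C60, and 0.40, 0.40, 0.61 and 0.43 after NiO. Both C60 arrays at 3 days were below every air and NiO array of that time, while at 1 month the 3 groups overlapped.

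Ddit3 fell by 0.64 log2 after C60 at 3 days (SE 0.17, adjusted p = 0.0336). At 1 month its C60 fold of 0.37 (SE 0.13) fell short of the threshold (adjusted p = 0.0552), and the C60 effect differed between the times by 1.01 (SE 0.21, adjusted p = 0.00663). C60 arrays 3 and 4 had Ddit3 levels of 0.50 and 0.47 at 3 days, below all 3 air arrays too, and with all 4 C60 arrays the log2 fold was -0.49 (adjusted p = 0.0328). The call at 3 days was lost with only the compared groups in the fit (adjusted p = 0.123), with median scaling (0.0766), and without C60 array 1 (0.175), C60 array 2 (0.174), control array 2 (0.0885) or control array 3 (0.129). After NiO, Ddit3 gave log2 folds of -0.10 at 3 days (adjusted p = 0.622) and 0.14 at 1 month (0.434).

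Trib3 encodes a pseudokinase that ATF4 and CHOP induce and that in turn restrains ATF4. Its levels at 3 days were 1.49, 1.97 and 1.75 in clean air, 2.38 and 2.58 after C60, and 2.39, 2.96, 3.34 and 3.07 after NiO. At 1 month they were 2.44, 2.68, 2.15 and 2.80 in air, 2.43, 2.41, 2.40 and 2.58 after C60, and 2.41, 2.35, 2.90 and 2.63 after NiO. The 3 air arrays at 3 days were lower than every other array used, and at 1 month the groups overlapped.

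Against air at 3 days, Trib3 rose by 1.20 log2 after NiO (SE 0.20, adjusted p = 0.000647), a call kept in all 17 alternatives. After C60 the log2 fold was 0.74 (SE 0.24) and did not pass (adjusted p = 0.0856), although it did with quantile normalization (0.0276) and with normexp correction (0.041). C60 arrays 3 and 4 had Trib3 levels of 1.99 and 1.79, close to air, and with all 4 C60 arrays the log2 fold was 0.45 (adjusted p = 0.193).

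At 1 month the Trib3 fold after NiO was 0.06 (SE 0.18, adjusted p = 0.833), and the NiO effect was lower than at 3 days by -1.15 (SE 0.27, adjusted p = 0.00607), a call lost with median scaling (-0.63, adjusted p = 0.0703). The mean level was 2.94 ± 0.40 after NiO at 3 days and 2.57 ± 0.25 at 1 month (SD, n = 4 each). Clean air moved the other way, from 1.74 ± 0.24 (n = 3) to 2.52 ± 0.29 (n = 4), a log2 difference of 0.78 (SE 0.20, adjusted p = 0.00432) in which time, slide and scan day cannot be told apart.

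Hspa5 encodes BiP, the main chaperone of the ER lumen, which also keeps the sensors inactive. Its levels at 3 days were 5.23, 5.39 and 5.43 in clean air, 5.40 and 5.15 after C60, and 5.71, 5.95, 5.86 and 6.13 after NiO. At 1 month they were 5.52, 5.75, 5.35 and 5.54 in air, 5.67, 5.61, 5.71 and 6.12 after C60, and 5.69, 5.65, 5.71 and 5.83 after NiO. At 3 days all 4 NiO arrays were above all air and C60 arrays, whereas at 1 month air overlapped both particle groups.

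Hspa5 rose by 0.56 log2 after NiO at 3 days (SE 0.13, adjusted p = 0.00837). The call was lost with only the compared groups in the fit (adjusted p = 0.0869), with median scaling (0.117) and without NiO arrays 2 and 3 together (0.0515). At 1 month the log2 fold was 0.18 after NiO (SE 0.12, adjusted p = 0.255) and 0.24 after C60 (SE 0.12, adjusted p = 0.161), and at 3 days after C60 it was -0.07. The NiO effect on Hspa5 was not shown to differ between the times (difference -0.38, SE 0.18, adjusted p = 0.102). Hspa5 is 1 of 15 tested genes whose promoter window held the ER stress response element shown for it, and 2 of these 15 were higher and 1 was lower at 3 days after NiO, with a median log2 fold of 0.06 beside 0.04 over all genes. That is 20% called beside 19% of all genes. The other higher one was Dnajc3, a co-chaperone of BiP (0.36, adjusted p = 0.0285), and the lower one was Zfp57, an imprinting factor (-0.49, adjusted p = 0.0445). At 1 month 3 of the 15 were higher and 3 lower after NiO (40% beside 30.8%), and 1 was higher and 2 were lower after C60 (20% beside 19.7%). At 3 days after C60 limma called none, and none had an unadjusted p under 0.05.

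Hsp90b1 encodes GRP94, the ER member of the HSP90 family. On the probe with the higher signal its levels at 3 days were 4.68, 4.81 and 5.28 in clean air, 4.81 and 4.89 after C60, and 5.14, 5.44, 5.31 and 5.39 after NiO. Air array 3 lay within the NiO range and the other air arrays lay below it. The log2 fold of 0.40 (SE 0.14) fell short of the threshold (adjusted p = 0.0618), and it passed without NiO array 1 (0.46, adjusted p = 0.0246) and without control array 3 (0.58, adjusted p = 0.0176). At 1 month the levels ran from 4.34 to 4.87 in air, from 4.51 to 4.84 after C60 and from 4.47 to 4.74 after NiO, with log2 folds of 0.11 for C60 and 0.04 for NiO.

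Pdia4 encodes a protein disulfide isomerase, and Dnajb9 encodes ERdj4, a co-chaperone of BiP. Pdia4 levels at 3 days were 1.75, 1.99 and 2.23 in clean air, 1.96 and 2.02 after C60, and 1.89, 2.61, 2.23 and 2.50 after NiO. Dnajb9 levels were 1.01, 1.21 and 1.42 in air, 1.26 and 1.40 after C60, and 1.13, 1.90, 1.73 and 1.45 after NiO. In both genes NiO array 1 lay among the air arrays and was the lowest of its group.

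With all NiO arrays at 3 days the log2 fold was 0.32 for Pdia4 (SE 0.16, adjusted p = 0.18) and 0.34 for Dnajb9 (SE 0.14, adjusted p = 0.104). Without NiO array 1 both passed, at 0.46 (adjusted p = 0.025) and 0.48 (adjusted p = 0.00607). With that array left out 6 of the 9 members were higher, and the number of genes called overall was 9554 in place of 4734. At 1 month Pdia4 levels ran from 1.10 to 1.64 in air, from 0.98 to 1.31 after C60 and from 0.99 to 1.29 after NiO, giving log2 folds of -0.22 (adjusted p = 0.301) and -0.24 (0.23). Those of Dnajb9 at 1 month were 0.13 (0.498) and 0.03 (0.859).

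Herpud1 encodes a membrane protein of ER-associated degradation, in which misfolded proteins leave the ER for the proteasome. On its brighter probe the levels at 3 days were 2.96, 3.45 and 3.78 in clean air, 3.22 and 3.32 after C60, and 3.34, 2.86, 2.79 and 3.30 after NiO. The air arrays spanned most of that range, and NiO gave a log2 fold of -0.32 (SE 0.18, adjusted p = 0.203). At 1 month the levels were 3.52, 3.28, 3.25 and 3.70 in air, 3.84, 3.85, 3.59 and 3.96 after C60, and 3.51, 3.55, 3.51 and 3.69 after NiO. All but 1 C60 array lay above the air arrays, with a log2 fold of 0.37 (SE 0.16) that did not pass (adjusted p = 0.11).

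Herpud1, Dnajb9 and Hsp90b1 each had 2 probes at different places of the transcript, and for all 3 genes the probes changed unequally. The second Herpud1 probe, at chr19:11040019-11040078 (rn4) and nearer the 5′ end by coordinate and strand, rose after C60 at 1 month by 0.68 (SE 0.16, adjusted p = 0.0109) and after NiO by 0.46 (SE 0.16, adjusted p = 0.042). Its levels at 1 month were 1.37, 1.07, 1.12 and 1.68 in air, 1.86, 2.04, 2.02 and 2.02 after C60, and 1.65, 1.75, 1.75 and 1.92 after NiO. All C60 arrays were thus above all air arrays on that probe, while 1 air array lay within the NiO range. The probe not used for the gene was tested in a separate limma fit, adjusted over 28677 probes. Its result stands beside the 0.37 and 0.13 of the brighter probe, neither of which passed.

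The same Herpud1 probe fell by 1.29 log2 between the controls at 3 days and 1 month (SE 0.18, adjusted p = 2.71e-05), and the brighter probe gave 0.04 (adjusted p = 0.859). The 5′ probe of Hsp90b1 gave -0.17 after NiO at 3 days (SE 0.23, adjusted p = 0.626) against the 0.40 of the brighter one, and fell by 1.08 between the controls (adjusted p = 0.00121) against -0.39. The 5′ probe of Dnajb9 gave -0.06 after NiO at 3 days (adjusted p = 0.805) against 0.34, and fell by 0.44 between the controls (adjusted p = 0.0199) against -0.10. In Hsp90b1 the 5′ over 3′ difference ran from -3.60 to -3.45 in air at 3 days and from -4.30 to -3.80 after NiO, without overlap. After C60 it ran from -3.78 to -3.72, also below air. The Dnajb9 difference likewise ran from -0.02 to 0.08 in air, from -0.37 to -0.31 after C60 and from -0.65 to -0.13 after NiO. For Herpud1, C60 (-1.24 to -1.07) lay below air (-0.96 to -0.54) and NiO (-1.16 to -0.78) overlapped it. Separation of this kind was not counted over the other genes with probes at 2 places. The 2 Hsp90b1 probes are shown because their disagreement bears on that gene's fold, both as the 60 bases on the array, and the first is the brighter one:
Hsp90b1, chr7:23334474-23334623 (rn4): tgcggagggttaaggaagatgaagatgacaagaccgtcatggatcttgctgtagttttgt
Hsp90b1, chr7:23346248-23347359 (rn4): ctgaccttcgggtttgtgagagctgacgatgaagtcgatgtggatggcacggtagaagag

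**Figure D3:**
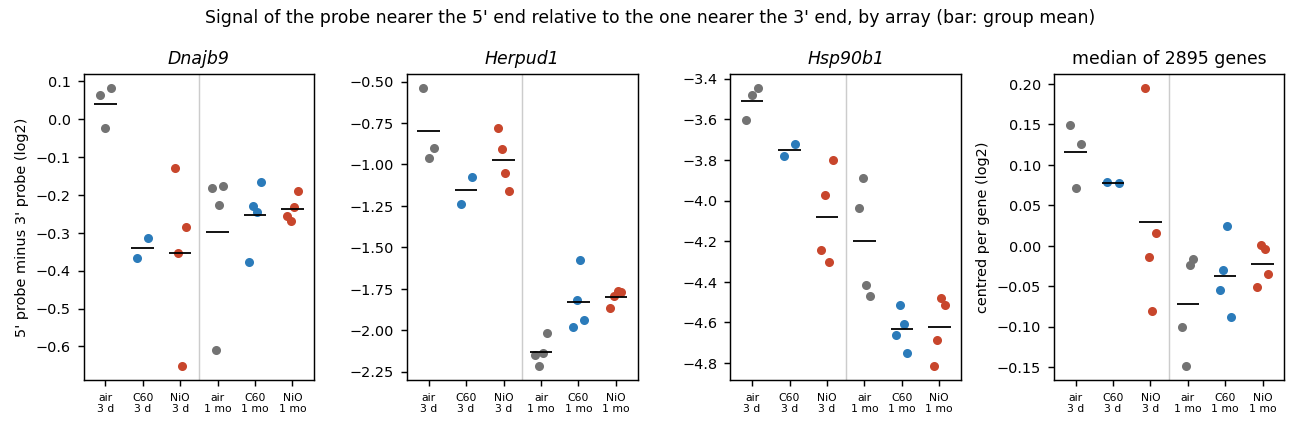
Log2 signal of the probe nearer the 5′ end minus that of the probe nearer the 3′ end on each array (points) and by group (bar) for Dnajb9, Herpud1 and Hsp90b1, and at right the median over 2895 genes with probes at 2 places, centred per gene. Only differences between groups can be read, since the offset belongs to the probes. For Herpud1 the air arrays move from between -0.96 and -0.54 at 3 days to between -2.21 and -2.02 at 1 month.

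Over the 2895 genes with probes at 2 places, the 5′ probe was lower relative to the 3′ probe in 61.1% of genes in the controls at 1 month against 3 days (median -0.16 log2), and in 60% of genes after NiO at 3 days against air (median -0.08). The NiO arrays at 3 days differed in this: array 1 had a centred median of 0.19, above the air arrays (0.07 to 0.15), and arrays 2 to 4 lay below them (-0.08 to 0.02). Without array 1 Pdia4 and Dnajb9 passed, and so did Hsp90b1, which passed in 4 of 17 alternatives. On the Hsp90b1 probe pair array 1 was at -4.24, below the air arrays (-3.60 to -3.45). The 5′ probe was lower in 54.7% of genes after C60 at 3 days, 44.7% after NiO at 1 month and 46% after C60 at 1 month. The part of RNA quality in these members' folds was not tested.

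Between the particles at 3 days, Asns was higher after NiO than after C60 by 0.53 log2 (SE 0.09, adjusted p = 0.0022), Hspa5 by 0.64 (SE 0.15, adjusted p = 0.0164) and Ddit3 by 0.54 (SE 0.16, adjusted p = 0.0485). These 3 of 9 members stand beside 7.78% of all genes called (5.06% higher and 2.72% lower). For these 3, and for Hsp90b1, which did not pass, the NiO arrays lay above both C60 arrays used. For Ddit3 the unused C60 array 3 (0.50) lay above NiO array 1 (0.48). How many of all genes separated in this way was not counted. At 1 month Asns was higher after NiO by 0.50 (SE 0.07, adjusted p = 0.00237), kept in all 17 alternatives, as 1 of 9 members beside 1.23% of all genes called (0.837% higher and 0.392% lower). Trib3 did not differ beyond its spread between the particles at 3 days (0.46, SE 0.22, adjusted p = 0.195), and it passed with all 4 C60 arrays (0.76, adjusted p = 0.0117).

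None of the 3 calls between the particles at 3 days remained with median scaling or with only the compared groups in the fit. The Ddit3 call was lost in 10 of 16 alternatives, among them without C60 array 1 (adjusted p = 0.244), C60 array 2 (0.195) or NiO arrays 2, 3 or 4 (0.0936, 0.101 and 0.0781), and the Hspa5 call in 6 of 16, among them without C60 array 1 (0.0572) or C60 array 2 (0.162) and with quantile normalization (0.0592). With NiO arrays 2 and 3 left out together, 1 of the 3 remained, that of Hspa5 being lost (0.0664).

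The effects at 1 month and 3 days differed for 2 of 9 members after NiO, Asns (higher) and Trib3 (lower), beside 37.5% of all genes (14.4% higher and 23.1% lower). After C60 they differed for Asns and Ddit3, both higher, beside 10.4% of all genes (4.21% higher and 6.19% lower). The controls alone differed between the times in 5 of 9 members, beside 46% of all genes (27.7% higher and 18.3% lower at 1 month). In them Trib3 was higher at 1 month, and Asns (-0.57), Ddit3 (-0.49, adjusted p = 0.00912), Pdia4 (-0.64, adjusted p = 0.00441) and Hsp90b1 (-0.39, adjusted p = 0.0376) were lower. Fitted to the 6 slide means, which leaves 2 residual degrees of freedom, limma called 0 of 24975 genes for NiO or C60 over both times (0% each). An unadjusted p under 0.05 was reached by 1017 and 687 genes, fewer than that threshold would pass with no effect in any gene. Asns was then higher by 0.55 after NiO (SE 0.23, unadjusted p = 0.0735).

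Genes that ATF4 turns on, and genes of amino acid uptake and synthesis, were listed apart from the members (36 genes, 32 tested). After NiO 6 of the 32 were higher (18.8%, beside 11.1% of all genes) and 3 lower (9.38%, beside 7.86%) at 3 days. At 1 month 11 were higher (34.4%, beside 11.9%) and 2 lower (6.25%, beside 18.9%), with a median log2 fold over the list of 0.12 beside 0.04 over all genes at 3 days and of 0.22 beside -0.12 at 1 month. At 3 days the largest rises were those of Bcat1, a transaminase of branched-chain amino acids (1.80, SE 0.18, adjusted p = 4.25e-06), Chac1, which degrades glutathione (1.39, SE 0.19, adjusted p = 0.000147), and Phgdh, the first enzyme of serine synthesis (1.38, SE 0.19, adjusted p = 0.000118). The largest falls were those of the mTORC1 inhibitor Ddit4 (-1.73, adjusted p = 0.00487), the transcription factor Cebpb (-0.81, adjusted p = 0.00701) and the growth factor Vegfa (-0.78, adjusted p = 0.00415). At 1 month Cebpb had risen (1.13, adjusted p = 0.000418), with Bcat1 (1.00, adjusted p = 0.000739) and Sesn2, a leucine sensor (0.94, adjusted p = 0.0478). Cth, which makes cysteine (-1.08, adjusted p = 0.00576), and Pycr1, which makes proline (-0.70, adjusted p = 0.0358), had fallen.

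After C60 none of the 32 was higher (beside 2.94% of all genes) and 2 were lower (beside 1.99%) at 3 days, Ddit4 (-1.87, adjusted p = 0.0192) and Cebpb (-0.86, adjusted p = 0.0303). At 1 month 2 of the 32 were higher, beside 7.29% of all genes. They were Ppp1r15a, the phosphatase subunit that reverses eIF2alpha phosphorylation (0.75, adjusted p = 0.0186), and Shmt2, a mitochondrial enzyme of serine use (0.29, adjusted p = 0.0152). Between the particles NiO was higher in 7 of 32 at 3 days (beside 5.06% of all genes) and in 5 at 1 month (beside 0.837%) and lower in none (adjusted p from limma). The largest were Bcat1 (1.82, adjusted p = 6.55e-05, and 1.16, adjusted p = 0.0015) and Phgdh (1.60, adjusted p = 0.000332, and 0.74, adjusted p = 0.0489) at 3 days and 1 month, Chac1 at 3 days (1.17, adjusted p = 0.00439) and Cebpb at 1 month (0.81, adjusted p = 0.0254). Mean Bcat1 levels were -3.42 in air, -3.43 after C60 and -1.62 after NiO at 3 days, and -3.19, -3.36 and -2.19 at 1 month. Against air after NiO, leaving out NiO array 1 raised the total of 9 called at 3 days to 15, and leaving out NiO array 1, 3 or 4 at 1 month lowered the total of 13 to 8 each time. Between the particles the 7 at 3 days became 3 without C60 array 1, 4 without C60 array 2 and 12 without NiO array 1, and the 5 at 1 month became 2 or 3 without any 1 array but NiO array 4. Totals under such alternatives, for this list and those below, are given without the number of all genes called in each. They show how far calls depend on arrays and scaling, and are no result about a list.

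Of 17 tested cytosolic aminoacyl-tRNA synthetases, which load amino acids onto their tRNAs, 3 were higher (17.6%, beside 11.1% of all genes) and 1 lower (5.88%, beside 7.86%) at 3 days after NiO. They were Nars1 (0.65, adjusted p = 0.0118), Farsb (0.39, adjusted p = 0.0233), Eprs1 (0.30, adjusted p = 0.0101) and, lower, Kars1 (-0.35, adjusted p = 0.00465). In the NiO group at 1 month 11 were higher (64.7%, beside 11.9%) and 1 lower (5.88%, beside 18.9%), with a list median of 0.38 beside -0.12 over all genes, led by Aars1 (0.68, adjusted p = 0.00078), Yars1 (0.59, adjusted p = 0.000537) and Qars1 (0.56, adjusted p = 0.0123). In the C60 group at 1 month 5 were higher (29.4%, beside 7.29%) and 1 lower, among them Aars1 (0.52, adjusted p = 0.00619), Qars1 (0.49, adjusted p = 0.0328) and Wars1 (0.43, adjusted p = 0.0486). At 3 days after C60 Kars1 alone was called, lower (-0.38, adjusted p = 0.0167), beside 1.99% of all genes lower. Between the particles 1 was higher after NiO at 3 days (beside 5.06% of all genes), Eprs1 (0.36, adjusted p = 0.0135). None was called at 1 month, where the median was 0.11 and 2 had an unadjusted limma p under 0.05. As with Asns, the controls were called lower at 1 month than at 3 days in 11 of these 17 genes and higher in 2. Of all genes 18.3% were lower and 27.7% higher in that contrast. The folds at 1 month are taken against these same controls. The total of 12 called for NiO at 1 month changed by over 1.5 times in none of the alternatives. That of 4 at 3 days became 0 with only the compared groups in the fit, 2 without control array 1 and 7 without NiO array 1, and that of 6 for C60 at 1 month became 2 without C60 array 1, 2 or 3 or control array 1 or 2, and 12 with median scaling.

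**Figure D4:**
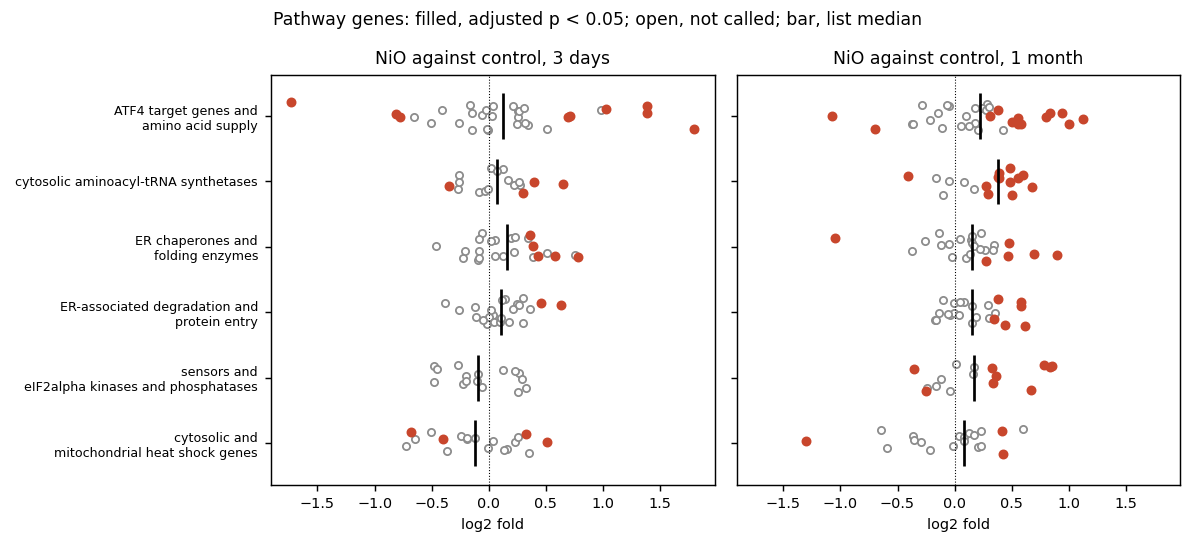
Log2 fold after NiO against clean air (x axis) for each tested gene of 6 pathway lists (rows) at 3 days (left) and 1 month (right). Filled points passed at adjusted p under 0.05 and the bar is the list median. The synthetase list has 11 filled points above 0 at 1 month and 3 at 3 days.

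Among 24 tested ER chaperones and folding enzymes other than the members, 5 were higher (20.8%, beside 11.1% of all genes) and none lower at 3 days after NiO (median 0.16 beside 0.04 over all genes). The largest were the oxidase Ero1a (0.78, SE 0.13, adjusted p = 0.000945), the disulfide isomerase Pdia6 (0.58, SE 0.15, adjusted p = 0.0135) and the BiP co-chaperone Dnajb11 (0.43, SE 0.13, adjusted p = 0.0278). By 1 month after NiO 5 were higher (20.8%, beside 11.9%), led by Txndc11 (0.89, adjusted p = 0.00663), calreticulin Calr (0.69, adjusted p = 0.0068) and the disulfide isomerase P4hb (0.48, adjusted p = 0.00261), and calnexin Canx was lower (-1.05, adjusted p = 0.0211). After C60 none was called at 3 days by limma (1 had an unadjusted p under 0.05). By 1 month after C60 3 of the 24 were higher (beside 7.29% of all genes), Txndc11 (0.73, adjusted p = 0.0263), Calr (0.66, adjusted p = 0.0145) and Manf (0.39, adjusted p = 0.0477). Canx alone was lower (-1.10, adjusted p = 0.0248), beside 12.4% of all genes. Between the particles at 3 days NiO was higher for Ero1a (0.58, adjusted p = 0.0285), Sil1 (0.47, adjusted p = 0.0401) and Calu (0.39, adjusted p = 0.0397), beside 5.06% of all genes higher. At 1 month none was called by limma (1 had an unadjusted p under 0.05).

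The count of 5 at 3 days after NiO became 1 with only the compared groups in the fit, with median scaling, without control array 1 and without NiO arrays 2 and 3 together, 2 without control array 2 or NiO array 2 or 3, and 9 without NiO array 1. The total of 6 at 1 month became 17 with median scaling, which shifted all genes upward at that time. Between the particles at 3 days the 3 became 0 without C60 array 1 or NiO array 2, 1 without C60 array 2 or NiO array 3, and 10 without NiO array 1. Leaving out NiO array 1 also raised the number of all genes called against air, and for NiO against C60 that number is not given here. The total of 4 at 1 month after C60 became 0 without control array 2, 1 without C60 array 1, 2 or 3, 2 without control array 1, and 13 with median scaling.

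Of 23 tested genes of ER-associated degradation and protein entry into the ER, 2 were higher at 3 days after NiO, Sec62 (0.63, adjusted p = 0.0461) and Ssr1 (0.46, adjusted p = 0.00371). That is 8.7%, under the 11.1% of all genes. At 1 month 6 were higher (26.1%, beside 11.9%), led by Sec61g (0.62, adjusted p = 0.0144), the ubiquitin ligase Syvn1 (0.58, adjusted p = 0.0149) and Edem2 (0.58, adjusted p = 0.00746). After C60 5 were higher at 1 month (21.7%, beside 7.29%), with Sec61g (0.60, adjusted p = 0.0242), Syvn1 (0.55, adjusted p = 0.0272) and Edem2 (0.42, adjusted p = 0.0454) again the largest, and at 3 days Sec63 was lower (-0.53, adjusted p = 0.0287). Between the particles NiO was higher in 4 at 3 days (beside 5.06% of all genes), the largest being Ssr2 and Ssr1 (0.56 each, adjusted p = 0.0403 and 0.00527) and Sec63 (0.48, adjusted p = 0.0303). The total of 5 at 1 month after C60 became 0 without C60 array 1 or control array 2, 1 without C60 array 2 or control array 1, and 3 without C60 array 3. The 2 at 3 days after NiO became 1 without any 1 control array or NiO array 2, 3 or 4, and 6 without NiO array 1. The 4 between the particles became 0 without C60 array 1, 1 without C60 array 2 or NiO array 2 or 3, and 12 without NiO array 1.

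None of 16 tested sensors, eIF2alpha kinases and phosphatases was called by limma at 3 days after NiO (3 had an unadjusted p under 0.05), although 4 were called without NiO array 1 and 1 without NiO array 2 or 4. At 1 month after NiO 7 were higher (43.8%, beside 11.9% of all genes) and 2 lower (12.5%, beside 18.9%). Those were led by Wfs1 (0.85, adjusted p = 0.0103), the sensor Atf6 (0.84, adjusted p = 0.0123) and Atf6b (0.78, adjusted p = 0.00426), with Creb3l1 (-0.36, adjusted p = 0.00752) and the PERK gene Eif2ak3 (-0.25, adjusted p = 0.0451) lower. After C60 5 were higher at 1 month (31.2%, beside 7.29%), among them Wfs1 (0.77, adjusted p = 0.0257), Atf6 (0.75, adjusted p = 0.0302) and the protease gene Mbtps1 (0.65, adjusted p = 0.0333). The total of 6 called there became 1 without control array 2, 2 without C60 array 1 or 3, and 3 without C60 array 2. The 1 gene called lower there was Mbtps2, and it was also the 1 sensor called lower for C60 at 3 days and the 1 called higher for NiO against C60 at each time. It was well above background on 1 of 4 C60 arrays at 1 month and on none at 3 days, so these calls rest on values near background and no fold is given for it.

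Heat shock genes of the cytosol and mitochondria belong to a stress response outside the ER, and 19 were tested. After NiO 2 were higher and 2 lower at 3 days (10.5% each, beside 11.1% and 7.86% of all genes). At 3 days after NiO Hspa9 (0.51, adjusted p = 0.0263) and Hspd1 (0.33, adjusted p = 0.0448) were higher, and Dnajb1 (-0.68, adjusted p = 0.00277) and the factor Hsf1 (-0.41, adjusted p = 0.0286) were lower. That total of 4 became 1 without any 1 control array or without NiO array 2 or 3, and 7 without NiO array 1. At 3 days after C60 none was higher (beside 2.94% of all genes). Hspa8 (-0.59, adjusted p = 0.028) and Dnajb1 (-0.58, adjusted p = 0.0467) were lower (beside 1.99%), with a list median of -0.30 beside -0.03 over all genes. The mean level over the 19 genes ran from 2.21 to 2.26 on those C60 arrays, below the 2.47 to 2.76 of air. At 1 month after NiO Serpinh1 (0.43, adjusted p = 0.00821) and Hsf1 (0.41, adjusted p = 0.012) were higher, beside 11.9% of all genes. Hspa1l was lower (-1.30, adjusted p = 0.0199), beside 18.9%. After C60 5 of the 19 were higher at that time (beside 7.29% of all genes), led by the small heat shock genes Hspb1 (0.81, adjusted p = 0.0317) and Hspb8 (0.54, adjusted p = 0.0445) and by Hsf1 (0.48, adjusted p = 0.0093). Hspa9 was lower (-0.47, adjusted p = 0.0263), beside 12.4%. The total of 6 after C60 became 2 without C60 array 2 or control array 2 and 3 without C60 array 1 or 3, and that of 3 after NiO became 5 without control array 3 or 4. In all 5 lists with a call for C60 at 3 days, the total of 1 or 2 became 0 without C60 array 2.

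Marker levels of cells with much ER, and of cells drawn in by particles, are given because several differed between the groups, although most single markers did not pass. Markers called stand beside the shares of all genes higher and lower. These were 11.1% and 7.86% at 3 days after NiO, 11.9% and 18.9% at 1 month after NiO, and 7.29% and 12.4% at 1 month after C60. The mean level over the 6 tested plasma cell markers ran from -1.02 to -0.20 in air, from -0.39 to -0.23 after C60 and from -0.22 to 0.62 after NiO at 3 days, and from -0.46 to -0.01, from -0.01 to 0.11 and from 0.17 to 0.57 at 1 month. Of these markers 3 were higher at 3 days and 2 at 1 month after NiO, and these are not named here. Apart from any call, Jchain, Mzb1, Tnfrsf17, Sdc1 and Fkbp11 were well above background on all 21 arrays. Fkbp11 is also in the list of ER chaperones and folding enzymes. Over 7 macrophage markers it ran from 2.45 to 2.68 in air and from 2.89 to 3.08 after NiO at 3 days, with 2 markers higher and a list median fold of 0.07 beside 0.04 over all genes. At 1 month it ran from 2.37 to 2.59 in air and from 2.83 to 3.39 after NiO, with 4 markers higher.

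Over 9 alveolar type II markers the mean level ran from 5.66 to 5.69 in air, from 5.45 to 5.63 after C60 and from 5.78 to 5.89 after NiO at 3 days. At 1 month it ran from 5.49 to 5.60 in air, from 5.62 to 5.78 after C60 and from 5.69 to 5.97 after NiO. Both particle groups thus lay above air at 1 month, C60 by a narrow margin. Over the plasma cell markers NiO lay above air at 1 month, while the lowest C60 array (-0.0084) was level with the highest air array (-0.0088). Of the type II markers 2 were higher at 3 days and 3 at 1 month after NiO, and 1 at 1 month after C60.

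Over 4 B cell markers the mean level ran from -3.15 to -2.30 in air and from -1.89 to -1.63 after C60 at 3 days, with none called by limma (4 had an unadjusted p under 0.05). It ran from -2.91 to -2.57 in air and from -2.47 to -2.0 after C60 at 1 month, with 1 marker higher. Over 8 endothelial markers it ran from 2.49 to 2.53 in air and from 1.91 to 2.24 after NiO at 3 days, with 4 markers lower. Over 5 alveolar type I markers it ran from 4.79 to 4.85 in air and from 4.61 to 4.70 after NiO at 3 days, with 1 marker higher, 1 lower and a list median of -0.35. Over 5 neutrophil markers it ran from -0.94 to -0.43 in air and from -0.28 to 0.11 after NiO at 3 days, with 1 marker higher and a list median of -0.13. Of 7 club and mucous cell markers none was higher and 1 was lower at 3 days after NiO. The part of these cells in the changes of Trib3, Hspa5, Asns and Ddit3 was not tested.

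Over the 21 arrays, which share group, slide and scan day, the members did not vary as 1 set. The highest Pearson correlation between members was that of Hsp90b1 with Pdia4 (0.90), followed by Hsp90b1 with Dnajb9 (0.77), Dnajb9 with Pdia4 (0.69) and Hspa5 with Trib3 (0.66), and the lowest was that of Herpud1 with Pdia4 (-0.61). Asns and Atf4 had a correlation of -0.05. Among all genes with a symbol, the pattern most like that of Asns was that of Zbtb48 (0.94), that most like Trib3 was LOC685232 (0.89) and then Pck2 (0.88), and that most like Hspa5 was Nrap (0.84). Atf4 was most like Hspe1 (0.94), Ddit3 most like Hspa8 (0.84), Hsp90b1 most like Got1 (0.91) and then Dnajb11 (0.91), Pdia4 most like Klhl2 (0.96), Dnajb9 most like Actr8 (0.89) and Herpud1 most like Lypd2 (0.88).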

How the data were processed

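Scanner files of single-colour Agilent arrays hold spot intensity values, deposited as processed by Feature Extraction 9.5.3.1 per the file headers, with probes placed on rn4. A deposited table gives each group's ratio, used only to find which arrays the authors averaged; its centring stays unknown. Control spots were left out, and so were outlier spots unless every spot of a probe was flagged. Each array's 75th percentile was subtracted from log2 of its processed signal over 41012 probes. The filter asked that a probe be well above background on all used arrays of 1 or more groups, and 28677 probes passed. The probe with the highest mean stood for a gene, and names were updated through a GRCr8 gene table. Differences were tested with limma 3.58.1 in R 4.3.3 (lmFit and eBayes, 15 residual and 2.31 prior degrees of freedom, 21 of 23 arrays, all 6 groups in 1 fit), with Benjamini-Hochberg adjustment over 24975 genes. Probes not standing for their gene were tested in a separate fit of this kind, adjusted over 28677 probes. Steps were checked on simulated data. The members, lists and alternatives were chosen with earlier results of these data known. All members are named, and of each list the 3 called genes with the largest fold in each direction, except 1 gene that is not reported here; Dnajc3 and Zfp57 were named after their values were seen. The number of arrays limits the precision. Spots well above background made up 57.4% to 78.3% per array, and the correlation between arrays of 1 group ran from 0.946 to 0.996. Alternatives were other scaling, background correction, filters, probe rules, fits, and left-out arrays.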

Additional observations from a re-analysis of the deposited data

Results flagged for a closer look

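In 3 of 36 groups of 4 arrays, 1 array lay far from the other 3 relative to the group's range; chance gives such a result in about 1 of 20 groups. They were Atf4 in clean air array 2 at 1 month (5.42, with the nearest at 5.47), Ddit3 in NiO array 3 at 1 month (0.61, with the nearest at 0.43) and Trib3 in C60 array 4 at 1 month (2.58, with the nearest at 2.43). None of these 3 genes was called in the comparison concerned.

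For 4 results the effect of a particle differed between the times by the test of the difference. These were the NiO effects on Asns (0.52) and Trib3 (-1.15) and the C60 effects on Ddit3 (1.01) and Asns (0.55), each as 1 month minus 3 days on the log2 scale. The clean air groups themselves differed between the times in all 3 genes, and time, slide and scan day cannot be told apart.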

How the results depend on the processing

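No paired analysis was possible because the labels give each group as 1 sample with no replicate numbers that pair its arrays. Of 14 called results for single members, 6 stayed called in every alternative run (223 of 258 values called); of 58 not called, 47 of 1047 values were called. No called value changed sign. Numbers of members called follow, without the share of all genes called in each alternative. For NiO at 3 days (3), only the compared groups, median scaling, and leaving out NiO arrays 2 and 3 together gave 1 each; leaving out 1 array gave 2 to 6. For NiO at 1 month (1), median scaling gave 5, and leaving out 1 array 1 to 1. For C60 at 3 days (1), all 4 C60 arrays, normexp and quantile normalization gave 2, only the compared groups and median scaling 0, and leaving out 1 array 0 to 1. For C60 at 1 month (1), only the compared groups gave 0, median scaling 6, and eBayes with trend, the filter on every array, the mean of probes and normexp 2; leaving out 1 array gave 1 to 2. For NiO against C60 at 3 days (3), all 4 C60 arrays gave 6, only the compared groups and median scaling 0, leaving out NiO arrays 2 and 3 gave 1, and leaving out 1 array 1 to 6; at 1 month (1) it gave 1 to 1. For the NiO effect between times (2), median scaling gave 4, and leaving out 1 array 2 to 5; for that of C60 (2), 2 to 2. Quantile normalization and median scaling moved the median of all genes from -0.12 to 0.01 and 0.21 for NiO at 1 month, from -0.09 to 0.04 and 0.22 for C60 at 1 month, and from 0.04 to -0.04 and -0.13 for NiO at 3 days. They moved the share of higher calls from 38.7% to 55.4% and 77.4%, from 36.9% to 55.3% and 78.6%, and from 58.6% to 45.8% and 34.7%. The cause was not tested. Few arrays, and 2 for C60 at 3 days, limit what could pass.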
